A study of Rattus norvegicus with 8 samples.

Results

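The 10 genes described here encode parts of the elastic fibre (Eln, Fbn1), proteins of the mesenchymal matrix and of mesenchymal cell contact (Postn, Fndc1, Cdh11), and the contractile and cytoskeletal proteins of smooth muscle and myofibroblasts (Acta2, Tagln, Myh11, Cnn1, Des). They were picked by gene name, 10 of the 30562 genes in the deposited count table, and each name matched 1 row. They were proposed with results of the same libraries already known, so their levels and fold changes are given as a description, without p-values. All 10 passed the filter on low counts, which kept 16591 genes. The counts come from liver RNA of 8 Wistar rats, all male per the labels and 160 g at the start, with 2 rats chosen for sequencing from the 5 in each of 4 groups. The control group received vehicle. The atorvastatin group received a statin, an inhibitor of cholesterol synthesis, with its drinking water over 30 days, nominally 5 mg/kg each day. The labels also give a recipe of 5 mg in 20 mL of water per rat and day, so the dose received is uncertain. The hexachlorobenzene (HCB) group was given this chlorinated fungicide by mouth through a tube over 30 days, in weekly rounds of 3 doses of 100 mg/kg, and the last group had both agents. All rats were killed on day 37, and their age is not given. The 2 libraries of a group come from separate animals, per the labels.

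Elastic fibres consist of a core of crosslinked elastin laid down on microfibrils of fibrillin, and in liver they lie mainly around portal tracts, large vessels and the capsule. Portal fibroblasts, vascular smooth muscle cells and activated stellate cells are the known makers of these proteins, whereas hepatocytes, the main cell type by mass, are not. The smooth muscle proteins mark the walls of arteries and veins, and Acta2 also marks myofibroblasts, the matrix-producing cells of fibrotic liver. In whole tissue, fewer cells of a type and less RNA per cell cannot be told apart.

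Reads assigned to genes ranged from 29376942 to 51982004 per library. The share of reads outside annotated exons was 15.3% to 34.0% in the 4 libraries without HCB and 7.46% to 11.4% in the 4 labelled HCB or atorvastatin plus HCB. The liver label was borne out by albumin (Alb), at 45740 to 124965 CPM (the standard depth-scaled read count, here per normalised library size) in every library. The sex in the labels was not borne out. The Y-linked genes Ddx3, Kdm5d, Eif2s3y and Uty stood between 18.3 and 96.7 CPM in the 4 HCB-labelled libraries and between 0.0474 and 0.559 CPM in the other 4. The fetal liver protein Afp was at 70.1 to 145 CPM in the HCB-labelled libraries and at 11414 to 29745 CPM in the others, and the proliferation marker Mki67 at 6.62 to 26.1 against 141 to 324 CPM. Every difference by HCB label given here is therefore also a difference between libraries with and without Y-linked and fetal liver expression, and these cannot be told apart.

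Per kilobase of exon, which allows levels of different genes to be compared, elastin was the most abundant of the 10 genes in control, at 17.3 ± 4.39 RPKM (CPM divided by exon length in kilobases; mean ± SD, n = 2). Fibrillin-1 followed at 13.4 ± 2.60 RPKM, and these neighbours did not differ beyond their spread. Acta2 stood at 8.20 ± 3.36 and Tagln at 3.72 ± 0.821 RPKM. Postn (1.71 ± 0.170), Des (1.52 ± 0.472) and Cdh11 (1.40 ± 0.311) were close to each other on the RPKM scale, within their spread. Myh11 (0.512 ± 0.0847 RPKM), Fndc1 (0.507 ± 0.198 RPKM) and Cnn1 (0.152 ± 0.00749 RPKM) were the lowest. In the HCB group the order was different, with Tagln first at 4.72 ± 2.38 RPKM, then Fbn1 at 3.23 ± 0.0558, Acta2 at 2.38 ± 0.321 and Eln at 2.13 ± 0.663 RPKM. Tagln had the widest spread of these in HCB, and it overlapped that of Fbn1. With both treatments it was Tagln at 4.52 ± 0.981, Fbn1 at 4.15 ± 0.191, Eln at 3.43 ± 0.239 and Acta2 at 3.13 ± 0.670 RPKM, where Tagln and Fbn1, and Eln and Acta2, did not differ beyond their spread. In atorvastatin the order could not be read from means, since the SD exceeded the mean for Eln (45.6 ± 55.3 RPKM), Postn (7.71 ± 9.08), Fndc1 (3.65 ± 4.56), Myh11 (2.06 ± 2.28) and Cnn1 (0.726 ± 0.901). Cdh11 had the smallest SD relative to its mean there, 4.14 ± 0.927 RPKM.

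Eln (chromosome 12, 21968544 to 22011928 of mRatBN7.2), which encodes tropoelastin, the soluble subunit of the fibre core, varied most in absolute level. It was at 73.4 and 51.0 CPM in the control libraries, 23.4 and 304 CPM in the atorvastatin libraries, 5.95 and 9.32 CPM in the HCB libraries, and 12.9 and 11.7 CPM in the libraries of both treatments. The 4 HCB-labelled libraries lay below the 4 others, and atorvastatin replicate 2 stood 4.15-fold above the next library, control replicate 1. Atorvastatin replicate 1 was the lowest of the libraries without HCB, so the treated rats bracketed both controls.

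Fbn1 (chromosome 3, 112554925 to 112750889), the main fibrillin of the microfibril scaffold, was at 110.4 and 146 CPM in control, 101 and 199 CPM in atorvastatin, 31.2 and 30.5 CPM in HCB, and 38.4 and 41.0 CPM with both. The HCB-labelled libraries again lay below the others without overlap, and they lay within 1.34-fold of each other. Atorvastatin replicate 2 was the highest, by 1.37-fold over control replicate 2, a smaller lead than for elastin.

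Postn (chromosome 2, 138527696 to 138559099) encodes periostin, a matricellular protein of fibroblasts and remodelling tissue. Its levels were 5.64 and 6.49 CPM in control, 4.55 and 49.98 CPM in atorvastatin, 0.190 and 0.160 CPM in HCB, and 0.251 and 0.225 CPM with both. These HCB values rest on 6 reads in each HCB library and 10 reads in each library of both treatments, mates of a pair counted singly, so they are close to the limit of detection. The lowest library without HCB was 18.2-fold above the highest HCB-labelled library, the widest gap among the 10 genes. Atorvastatin replicate 2 was 7.70-fold above the next library. The promoter of Postn is shown because the gene had both that gap and a 7.70-fold lead of 1 library. These are the 250 bases before the RefSeq start on the GRCr8 build (chr2:140677811-140678060, plus strand), with the letters TATAAA in capitals, 44 to 39 bases before the start:
Postn: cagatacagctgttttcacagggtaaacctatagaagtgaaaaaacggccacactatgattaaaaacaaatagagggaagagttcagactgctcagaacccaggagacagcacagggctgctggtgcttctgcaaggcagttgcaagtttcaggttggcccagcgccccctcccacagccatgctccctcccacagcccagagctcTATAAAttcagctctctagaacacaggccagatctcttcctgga
Of the 27457 genes in the RefSeq promoter table, 13.1% hold TATAAA on either strand of such a window.

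Fndc1 (chromosome 1, 47281844 to 47364259), which encodes a fibronectin type III domain protein, was at 2.36 and 4.17 CPM in control, 2.73 and 44.3 CPM in atorvastatin, 1.14 and 0.961 CPM in HCB, and 1.20 and 1.01 CPM with both. Atorvastatin replicate 2 was 10.6-fold above the next library and 16.2-fold above the other atorvastatin library. The HCB-labelled libraries lay below the others, though the gap to the lowest of these was 1.96-fold. Cdh11 (chromosome 19, 2148458 to 2304272), a cadherin of mesenchymal cells, was at 4.47 and 6.13 CPM in control, 18.1 and 13.2 CPM in atorvastatin, 2.34 and 2.35 CPM in HCB, and 2.26 and 2.02 CPM with both. It was the one gene of the 10 that was higher in both atorvastatin libraries than in both controls, and the one whose highest library was atorvastatin replicate 1. A small nucleolar RNA gene on the same strand lies within its span.

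**Figure D1:**
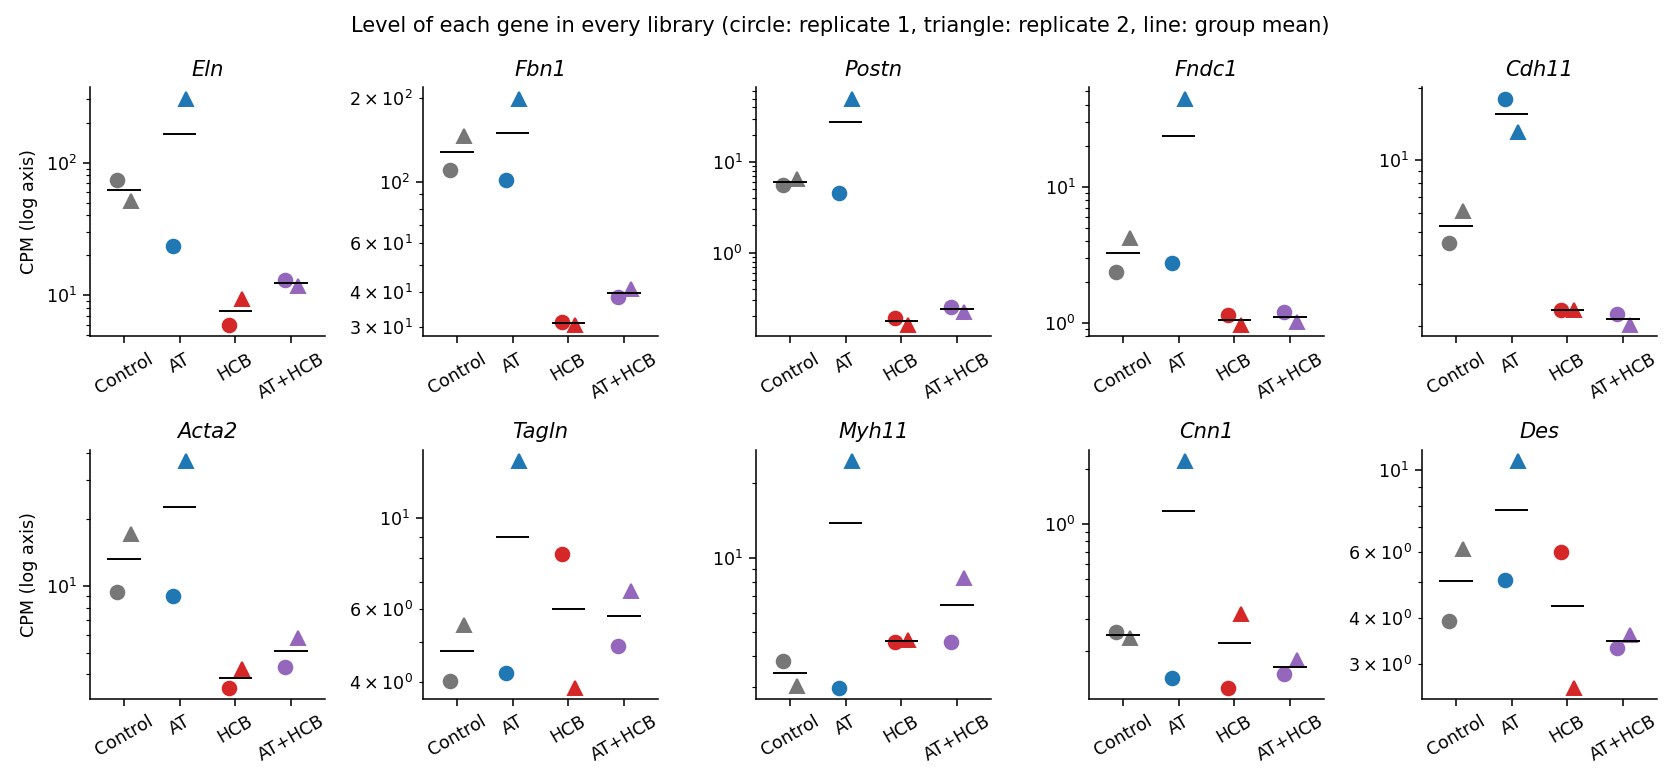
Level of each of the 10 genes in CPM (vertical log axis) in the 8 libraries by group (AT, atorvastatin; circle, replicate 1; triangle, replicate 2; line, mean of the group's 2 libraries). Atorvastatin replicate 2 is the highest point in 9 of 10 panels, and the HCB-labelled libraries lie below the others for Eln, Fbn1, Postn, Fndc1, Cdh11 and Acta2.

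Acta2 (chromosome 1, 231746548 to 231759554), the smooth muscle alpha-actin, was at 9.45 and 17.1 CPM in control, 9.005 and 36.6 CPM in atorvastatin, 3.48 and 4.22 CPM in HCB, and 4.31 and 5.85 CPM with both. It was the one contractile gene of the 5 whose HCB-labelled libraries all lay below the others, by 1.54-fold at the closest. Its promoter is shown because Acta2 is a well known target of serum response factor, which binds the CArG box. The window covers 250 bases before the RefSeq start on GRCr8 (chr1:241172504-241172753, minus strand). Capitals mark a pair of CArG boxes in which 1 inner base is G or C (134 to 125 and 84 to 75 bases before the start) and the letters CATTCC on the opposite strand (196 to 191 bases before the start), a motif bound by TEAD factors:
Acta2: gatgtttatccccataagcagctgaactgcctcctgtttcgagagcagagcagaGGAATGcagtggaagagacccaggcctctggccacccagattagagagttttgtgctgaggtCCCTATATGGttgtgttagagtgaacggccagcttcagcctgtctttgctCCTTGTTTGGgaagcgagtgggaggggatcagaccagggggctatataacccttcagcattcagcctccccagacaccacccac
The promoter table held 6 of the 10 genes. Of these 6 windows, 0 held a CArG box with only A and T inside, which 1.5% of all 27457 genes hold, and 1 held a box with 1 inner G or C, against 6.73% of all genes. This looser form was added after the sequences were seen. CATTCC on either strand was in 1 of 6 windows and in 11.8% of all, and the windows of Fbn1, Fndc1, Cnn1 and Des held none of the motifs searched.

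Tagln (chromosome 8, 46222472 to 46230668), which encodes transgelin, an actin-binding protein of smooth muscle, was at 4.01 and 5.49 CPM in control, 4.19 and 13.7 CPM in atorvastatin, 8.17 and 3.87 CPM in HCB, and 4.89 and 6.66 CPM with both. The groups overlapped, and atorvastatin replicate 2 was 1.68-fold above the next library, HCB replicate 1. The annotated span of Tagln overlaps that of Pcsk7 on the other strand. Counting used no strand, so strand could not assign reads where these genes overlap. Whether their exons overlap was not checked.

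Myh11 (chromosome 10, 743685 to 838459), the myosin heavy chain of differentiated smooth muscle, was at 3.83 and 3.03 CPM in control, 2.99 and 24.6 CPM in atorvastatin, 4.59 and 4.67 CPM in HCB, and 4.56 and 8.32 CPM with both. Apart from atorvastatin replicate 2, the libraries without HCB were the lowest of the 8, the opposite order to that of Acta2. Cnn1 (chromosome 8, 20632338 to 20641098), calponin, a regulator of contraction, was close to the limit of detection, with 4 to 12 reads in 7 of the libraries. Cnn1 levels were 0.254 and 0.237 CPM in control, 0.144 and 2.20 CPM in atorvastatin, 0.127 and 0.320 CPM in HCB, and 0.150 and 0.180 CPM with both. Atorvastatin replicate 2, with 106 reads, was 6.87-fold above the next library. Des (chromosome 9, 76850982 to 76858699), desmin, an intermediate filament of muscle that rat stellate cells also carry, was at 3.91 and 6.11 CPM in control, 5.05 and 10.5 CPM in atorvastatin, 6.02 and 2.59 CPM in HCB, and 3.31 and 3.599 CPM with both. Its groups overlapped, and 8.17 CPM of Tagln and 6.02 CPM of Des made HCB replicate 1 the higher HCB library for both genes.

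A single library thus carried the highest value of most of these genes. Atorvastatin replicate 2 was the highest of the 8 libraries for 9 of the 10 genes, and for 11.1% of the 16591 genes tested. It led by at least 2-fold for 6 of the 10, namely Eln, Postn, Fndc1, Myh11, Acta2 and Cnn1, and for 1.24% of all genes tested. Against the higher control library its ratios ran from 1.37 for Fbn1 and 1.73 for Des to 8.67 for Cnn1 and 10.6 for Fndc1. Since the genes were proposed with these libraries in view, nothing is read from those counts. Atorvastatin replicate 1 showed no such levels. It was 13.01-fold lower than its partner for Eln, 10.99-fold for Postn, 8.22-fold for Myh11 and 15.3-fold for Cnn1, and higher than its partner only for Cdh11, among these 10.

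**Figure D2:**
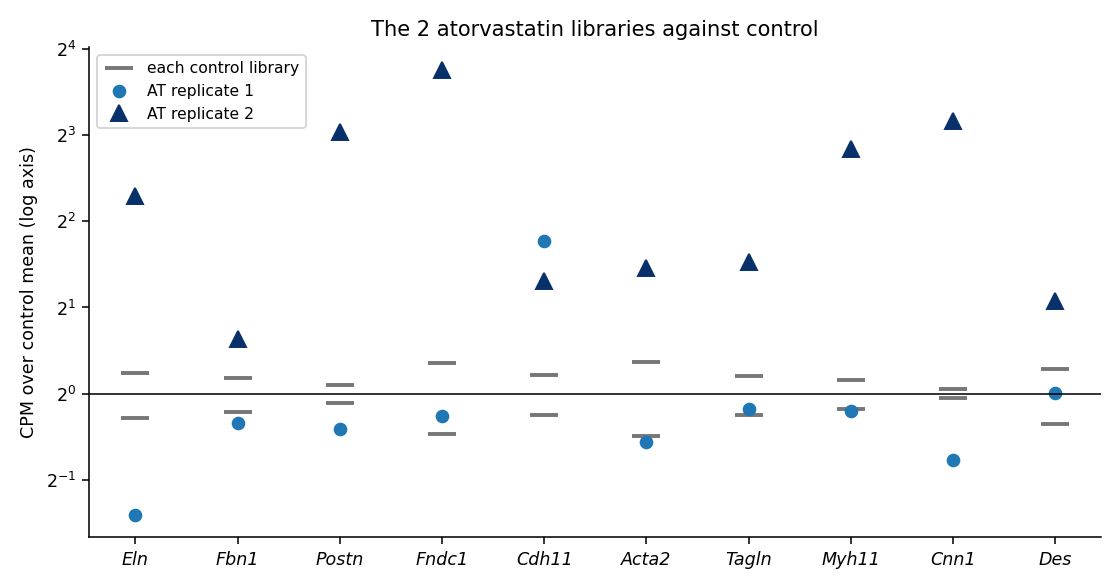
CPM of each gene in the 2 atorvastatin libraries (circle, replicate 1; triangle, replicate 2) divided by the mean of the 2 control libraries, on a log axis of base 2; grey dashes are the 2 control libraries. Replicate 2 lies above both controls for all 10 genes shown, and replicate 1 lies above both controls only for Cdh11.

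Markers of some other cell types were also highest in that library. The summed level of 5 mesothelial markers, genes of the lining of the liver surface, was 64.9 CPM in atorvastatin replicate 2 and 1.30 to 16.1 CPM in the other 7 libraries, and 5 of 5 were highest there. Mesothelin (Msln) was at 25.4 CPM against 0.311 CPM in atorvastatin replicate 1 and 2.42 and 5.79 CPM in control. The 5 portal fibroblast markers in the table, of 7 listed, summed to 48.4 CPM in that library, 12.96 CPM in its partner, 18.1 and 18.6 CPM in control and 4.54 to 5.76 CPM in the HCB-labelled libraries, again with 5 of 5 highest there. Fbln2 made up 34.6 of the 48.4 CPM, and it is also in the elastic fibre list. The gut smooth muscle actin Actg2 was at 11.4 CPM in that library against 0.150 to 0.995 CPM elsewhere. The skeletal muscle list, 6 of 7 in the table, stood at 8.74 against 0.630 to 1.73 CPM, with the skeletal actin Acta1 at 6.02 CPM. Its other genes were at most at 1.04 CPM there (Myh2), and Mb was higher in HCB replicate 2 (0.320 against 0.0831 CPM). The cardiac muscle list did not follow, at 1.79 CPM there against 0.802 to 2.99 CPM elsewhere, with 0 of 4 highest there. The part of these markers in the levels of the 10 genes was not tested.

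Summed markers of the other mesenchymal cells of liver did not set that library apart. The 11 stellate cell markers in the table, of 12 listed, summed to 783 CPM in atorvastatin replicate 2, 669 CPM in replicate 1, 717 and 782 CPM in control and 452 to 723 CPM in the HCB-labelled libraries. The 6 pericyte and mural markers summed to 156 CPM in it and to 156 to 177 CPM in the other libraries without HCB, but to 46.6 to 86.1 CPM in the HCB-labelled libraries. Of these 6, 3 were highest in atorvastatin replicate 2, namely Notch3, Cspg4 and Mcam. Rgs5 alone went the other way by HCB label, at 0.838 to 2.27 CPM without HCB and 5.53 to 8.85 CPM with it. The 5 endothelial markers ranged from 666 to 863 CPM without HCB and from 552 to 661 CPM with it. Its members differed in direction, the sinusoidal receptor Stab2 being at 344 to 426 CPM without HCB and 152 to 188 CPM with it, and the VEGF receptor Kdr at 151 to 189 and 221 to 264 CPM. Among the stellate markers, reelin (Reln) was at 353 to 451 CPM without HCB and 115 to 190 CPM with it, while the retinol esterase Lrat ranged from 42.1 to 57.1 and from 41.3 to 61.1 CPM. Ecm1, a matrix protein of the same list, went the other way, with 51.9 to 80.3 CPM without HCB and 152 to 339 CPM with it, and this raises the stellate sums of the HCB-labelled libraries. In biliary epithelium, 4 of 5 markers were in the table and their sum, 10.7 to 19.0 CPM over the 8 libraries, overlapped between all 4 groups. This sum joins members of opposite direction. Sox9 was at 6.51 to 7.95 CPM without HCB and 1.14 to 2.79 CPM with it, and Krt7 at 0.671 to 3.18 and 0.100 to 0.630 CPM. Epcam was at 3.45 to 7.25 CPM without HCB and 7.37 to 16.7 CPM with it, and Cftr overlapped.

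**Figure D3:**
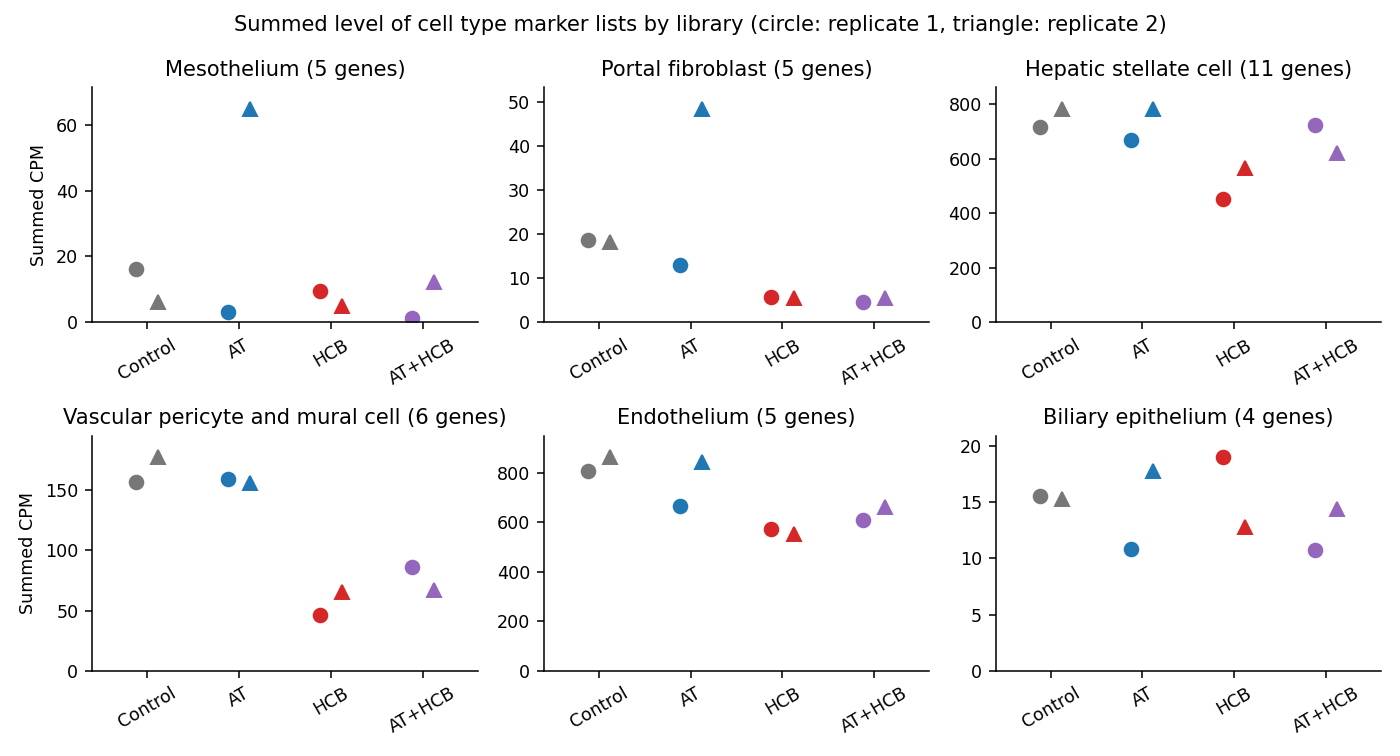
Summed CPM of 6 cell type marker lists (vertical axis from 0) in the 8 libraries by group (AT, atorvastatin; circle, replicate 1; triangle, replicate 2). Atorvastatin replicate 2 stands apart for the mesothelial and portal fibroblast lists, at 64.9 and 48.4 CPM, and close to the other libraries without HCB for the stellate and mural lists.

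The comparison of HCB with control asked what exposure changed in liver, with the limit given above. Eln, Fbn1, Postn, Fndc1, Cdh11 and Acta2 were lower in both HCB libraries than in both control libraries, and Myh11 was higher. The share of all genes ordered in this way between these groups was not counted. Fndc1, and the contractile genes other than Acta2, did not pass the test, which does not show that their levels were alike. By edgeR's quasi-likelihood test 5 of the 10 genes passed the threshold as lower (Eln, Fbn1, Postn, Cdh11 and Acta2) and 0 as higher, beside 13.9% and 13% of all genes tested (26.9% in either direction). That choice of genes and this contrast are not independent, so nothing is read from the count. The log2 fold change was −3.02 ± 0.91 (SE) for Eln, −2.05 ± 0.32 for Fbn1, −5.10 ± 1.09 for Postn, −1.64 ± 1.00 for Fndc1 and −1.18 ± 0.31 for Cdh11. Among the contractile genes it was −1.79 ± 0.56 for Acta2, −0.22 ± 0.46 for Des, −0.12 ± 1.13 for Cnn1, 0.34 ± 0.52 for Tagln and 0.43 ± 0.76 for Myh11. The median over the 10 was −1.41, beside −0.09 over all genes tested. Each SE rests on spread pooled over all groups, so libraries outside this comparison enter it. With atorvastatin replicate 2 left out, Fndc1 stood at −1.64 ± 0.49 and Eln at −3.02 ± 0.31, while Cdh11 stood at −1.17 ± 0.33. Fewer of the 10 passed as lower when any 1 library of control, of HCB or of both treatments was left out.

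The comparison of both treatments with atorvastatin alone shares no library with HCB versus control. Both used 1 model with spread pooled over all groups, so it is not an independent repeat. Here 6 of the 10 genes passed the threshold as lower, Fndc1 in addition to the 5 above, and 0 as higher. Beside these stood 15% and 12.6% of all genes tested (27.6% in either direction). The 10 genes were proposed with these libraries in view, so nothing is read from this count either. The log2 fold change was −3.73 ± 0.93 (SE) for Eln, −6.83 ± 1.08 for Postn, −4.41 ± 1.05 for Fndc1 and −2.87 ± 0.32 for Cdh11. The contractile genes also had negative values, −2.17 ± 0.56 for Acta2, −2.81 ± 1.12 for Cnn1, −1.18 ± 0.46 for Des, −1.10 ± 0.74 for Myh11 and −0.64 ± 0.52 for Tagln, and Fbn1 stood at −1.92 ± 0.32. The median over the 10 was −2.49, beside −0.11 over all genes tested. These sizes rest in large part on atorvastatin replicate 2. Without it fewer of the 10 passed, and Fbn1 stood at −1.34 ± 0.29, Postn at −4.23 ± 0.52 and Cdh11 at −3.07 ± 0.38. Eln then stood at −0.91 ± 0.34, Fndc1 at −1.29 ± 0.56 and Acta2 at −0.81 ± 0.41, and Myh11 changed sign, to 1.12 ± 0.47, as did Tagln (0.47 ± 0.49) and Cnn1 (0.21 ± 1.40). More of the 10 passed without atorvastatin replicate 1, which left only replicate 2 in that arm, and fewer without either library of both treatments. Where an arm had 1 library left, it was assumed to vary like the others.

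**Figure D4:**
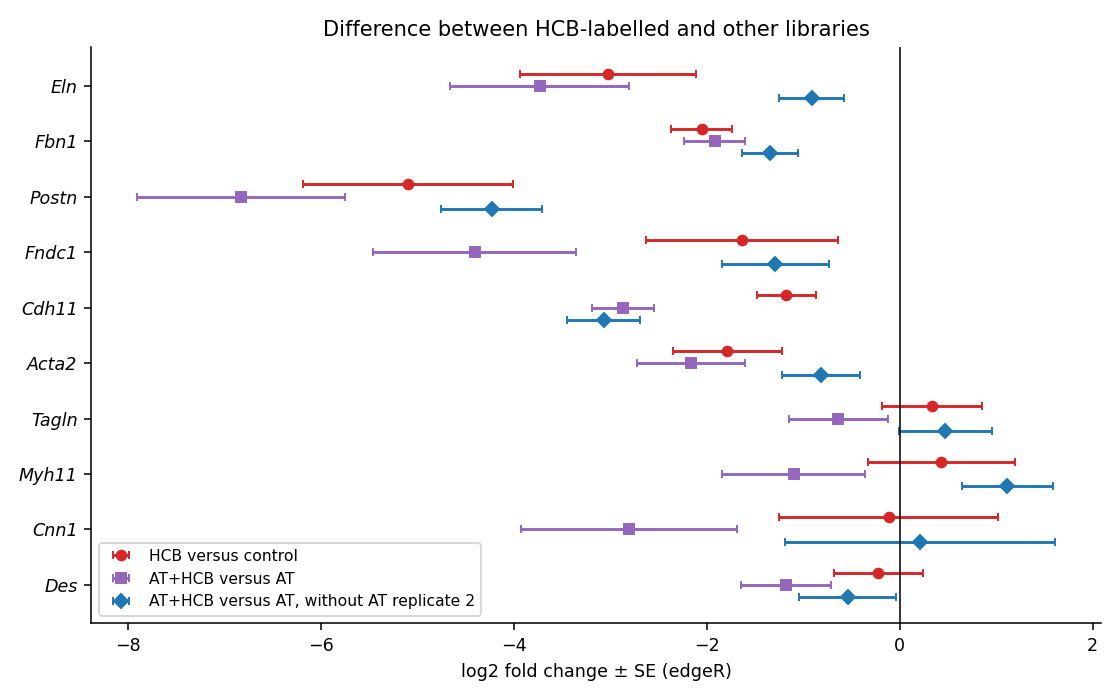
Log2 fold change ± SE from edgeR (horizontal axis) of each gene in HCB versus control (circles), in atorvastatin plus HCB (AT+HCB) versus atorvastatin (AT; squares) and in the latter without atorvastatin replicate 2 (diamonds). The diamonds of Eln, Fndc1 and Acta2 lie between −1.29 and −0.81, nearer to 0 than the squares, whereas Cdh11 is at −2.87 (square) and −3.07 (diamond).

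Over all 8 libraries, the 4 labelled HCB or both lay below the 4 others for 6 of the 10 genes, Eln, Fbn1, Postn, Fndc1, Cdh11 and Acta2, as for 25.0% of all genes tested. They lay above them for 0 of the 10 and for 21.8% of all genes. The choice of the 10 genes is not independent of these libraries, so nothing is read from these counts. When atorvastatin replicate 2 was set aside, Myh11 also separated, with the 3 remaining libraries without HCB, at 2.99 to 3.83 CPM, all below the HCB-labelled ones, at 4.56 to 8.32 CPM. Tagln, Cnn1 and Des overlapped with and without that library.

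Ratios between genes of the same library do not depend on library scaling. Acta2 per kilobase was 1.85 and 2.46 times Tagln in control, 1.69 and 2.10 times in atorvastatin, 0.336 and 0.858 times in HCB, and 0.694 and 0.691 times with both. The libraries without HCB thus had more of the actin than of transgelin and the HCB-labelled ones less, and atorvastatin replicate 2 fell among the former. Acta2 over Myh11 was 6.15 to 23.4 without HCB and 2.91 to 3.91 with it, the lowest of the former in atorvastatin replicate 2. Elastin over fibrillin-1 was 4.08 in atorvastatin replicate 2, 0.615 to 1.77 in the other libraries without HCB and 0.507 to 0.897 with HCB, so this ratio overlapped between the libraries with and without HCB. Per kilobase, elastin was above its scaffold protein only in atorvastatin replicate 2 and in control replicate 1, at 1.77 times in the latter. Postn over Fbn1 was 0.120 to 0.138 in the controls and atorvastatin replicate 1, 0.680 in atorvastatin replicate 2, and 0.0142 to 0.0177 with HCB.

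The comparison of atorvastatin with control asked for the effect of the statin alone. All 10 genes had a positive log2 fold change, from 0.23 ± 0.31 (SE) for Fbn1 to 2.85 ± 0.96 for Fndc1, but edgeR called 0 of the 10 and 0 of all genes tested (0%). At an unadjusted p below 0.05 there were 4 of the 10 and 181 of all genes, and DESeq2 called 0 of the 10, with 9 given no adjusted p, and 3 genes in all. The direction also rested on atorvastatin replicate 2. Without it 8 of the 10 genes were below control, Eln at −1.42 ± 0.37 and Acta2 at −0.57 ± 0.42 among them, while Cdh11 stayed above at 1.77 ± 0.37 and Des was at 0.0040 ± 0.51. Without atorvastatin replicate 1 instead, that arm held only replicate 2, and Eln stood at 2.29 ± 0.33 and Fndc1 at 3.76 ± 0.38.

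Both treatments were also compared with HCB alone, where a failed test does not show that levels were alike. Estimates were imprecise for several genes, with the widest SE for Postn (0.44 ± 1.33 on the log2 scale). The log2 fold changes ran from −0.44 ± 1.16 (SE) for Cnn1 to 0.69 ± 0.86 for Eln, with 6 positive and 4 negative, and edgeR called 0 of the 10 and 0 of all genes tested (0%). At an unadjusted p below 0.05 there were 0 of the 10 and 857 of all genes, and DESeq2 called 0 of the 10 and 44 in all. Both libraries of the combined treatment lay above both HCB libraries for Eln, Fbn1, Postn and Acta2, and below them for Cdh11 (2.26 and 2.02 against 2.34 and 2.35 CPM). For the remaining genes the groups overlapped. The share of all genes that separated in this way was not counted, so nothing is read from these orders. The interaction of the treatments was called for 0 of the 10 genes and 0 of all (0%) by edgeR, with 1 of the 10 and 391 of all at an unadjusted p below 0.05, and DESeq2 called 0 of the 10 and 5 in all. That 1 gene was Cdh11 (−1.69 ± 0.43 on the log2 scale), whose difference by HCB label was wider under atorvastatin.

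Other genes of elastic fibre assembly, from a list of 21 with the 10 genes left out, were tested in 20 cases, Mfap5 not passing the filter. This list and the fibroblast and smooth muscle lists below were chosen with earlier results of these data known. Their counts and p-values are therefore a description, not independent support. In HCB versus control 8 fell and 1 rose, beside 13.9% lower and 13% higher over all genes tested, with a median log2 fold change of −0.65 beside −0.09. Mfap2, a microfibril glycoprotein, was at 5.10 and 4.81 CPM in control and 0.317 and 0.160 CPM in HCB (log2 fold change −4.38 ± 0.60, SE; edgeR adjusted p = 0.000511). Ltbp2, a fibrillin-binding member of the latent TGF-beta binding protein family, fell (log2 fold change −1.94 ± 0.44; edgeR adjusted p = 0.00856), a call lost without HCB replicate 1 (0.0715) or HCB replicate 2 (0.0574). The crosslinking enzyme Loxl2 also fell (−1.13 ± 0.26; edgeR adjusted p = 0.00968 and, without control replicate 2, 0.0757). Its relative Loxl4 was the one that rose, from 1.96 and 1.80 to 20.8 and 11.2 CPM (3.09 ± 0.65; edgeR adjusted p = 0.00803). It no longer passed without control replicate 1 (0.109), control replicate 2 (0.0880) or HCB replicate 1 (0.0641). The number of the list that fell was 3 without control replicate 1 or control replicate 2, 2 without HCB replicate 1 and 4 without HCB replicate 2. Lox, the first of this enzyme family and named after its values were seen, was at 130 CPM in HCB replicate 2 and at 0.765 to 12.5 CPM in the other 7 libraries. In both treatments against atorvastatin 9 fell and 1 rose, beside 15% and 12.6% of all genes, and 4 fell and 0 rose without atorvastatin replicate 2, 3 fell without the first library of both treatments and 4 without the second, and 0 rose without atorvastatin replicate 1.

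Of 24 fibroblast and mesenchymal matrix genes, 23 were tested, and 6 fell and 0 rose in HCB versus control (median −0.53), beside 13.9% and 13% of all genes. They included the intermediate filament vimentin (Vim), at 102 and 110.9 CPM in control and 30.4 and 30.7 CPM in HCB (−1.80 ± 0.23, SE; edgeR adjusted p = 0.000359). The matricellular proteins thrombospondin-2 (Thbs2) and tenascin-C (Tnc) fell, with log2 fold changes of −2.62 ± 0.36 (edgeR adjusted p = 0.000502) and −2.98 ± 0.51 (0.002). The proteoglycan versican (Vcan) fell too (−2.75 ± 0.54; edgeR adjusted p = 0.00395). In both treatments against atorvastatin 7 fell and 0 rose, beside 15% and 12.6% of all genes, and 4 fell without atorvastatin replicate 2 or without the first library of both treatments. Vimentin ran from 95.4 to 125 CPM among the libraries without HCB, where Eln ran from 23.4 to 304 CPM.

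Of 24 genes of the smooth muscle contractile apparatus and its regulators, 22 were tested, and 7 fell and 0 rose in HCB versus control (median −0.39), again beside 13.9% and 13% of all genes. Calponin-2 (Cnn2), a calponin of many cell types, fell (log2 fold change −1.34 ± 0.25, SE; edgeR adjusted p = 0.00322), as did the integrin subunit Itga8 (−1.95 ± 0.39; adjusted p = 0.00467). Smoothelin (Smtn), a marker of contractile smooth muscle, stood at −1.30 ± 0.26 (edgeR adjusted p = 0.00482). The actin crosslinker filamin A (Flna) stood at −1.22 ± 0.28 (edgeR adjusted p = 0.00854), and at an adjusted p of 0.0505 when control replicate 2 was left out. The count that fell was 4 without control replicate 1 or HCB replicate 1. In both treatments against atorvastatin 9 fell and 0 rose, again beside 15% and 12.6% of all genes, 4 fell without atorvastatin replicate 2, 0 fell without the first library of both treatments and 2 without the second. Against control, atorvastatin moved 0 genes of the 3 lists past the threshold by edgeR, with 3, 0 and 2 at an unadjusted p below 0.05 in the order given. Atorvastatin replicate 2 was the highest library for 16 of 20, 17 of 23 and 11 of 22 genes of the lists, beside the 11.1% of all genes. The members that did not follow it included Synm, a filament protein that was lowest there at 9.66 CPM against 20.6 to 38.7 CPM elsewhere, named after its values were seen.

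Profiles were compared by the root mean square difference between log2 CPM values over the 8 libraries, each centred on its own mean, where 0 is an identical pattern. Among the 10 genes, Fbn1 and Acta2 were the closest pair at 0.34, then Tagln and Des at 0.37 and Myh11 and Tagln at 0.55, and Postn and Tagln were the farthest apart at 2.65. The nearest of the tested genes that have a name were Sfrp4 (0.43) and Col1a1 (0.53) for Eln, whose own profile had an SD of 1.88. Sfrp4 was close to the limit of detection, at 3.61 CPM in atorvastatin replicate 2 and 0 to 0.482 CPM elsewhere. For Fbn1 they were Aldh18a1 (0.14), Nid2 (0.17) and Col5a2 (0.17), with an SD of 1.08. Acta2 had Fbln1 (0.28) and Nid2 (0.29) nearest, and Myh11 had Cd34 (0.28) and Col6a6 (0.30), which were also the nearest to Cnn1 (0.41 and 0.39). Cd34 is also in the portal fibroblast list. The collagen gene Col1a1, near to both Eln and Fndc1, was at 136 and 138 CPM in control, 152 and 1351 CPM in atorvastatin, 25.2 and 30.3 CPM in HCB, and 31.5 and 44.2 CPM with both. Postn had Plagl1 nearest, at 0.62 against its own SD of 3.00.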

How the data were processed

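Per the submitters' processing notes, the tools were fastp 0.23.4 for the 150 bp reads and STAR 2.7.10b, with the build mRatBN7.2. Per the file headers, the deposited counts are whole reads over exons from featureCounts 2.0.6 with Ensembl release 111, with no strand option. The command sets no option to count read pairs as 1, so mates appear to be counted singly. The exon length of each gene comes from the same table.

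The test was edgeR's (version 4.0.16, under R 4.3.3; TMM, filterByExpr, robust quasi-likelihood test, 1 model of 4 groups with 4 residual degrees of freedom, Benjamini-Hochberg adjustment over 16591 genes, threshold 0.05; common biological coefficient of variation 0.295). TMM factors were 1.01 to 1.42 without HCB and 0.777 to 0.891 with it. Log CPM used a prior count of 2. Each SE is the absolute log2 fold change divided by the square root of the edgeR test's F statistic. It rests on spread pooled over all groups and is not the spread of the 2 groups compared. The members, lists and tests were chosen with earlier results of these data known. From each related list the rule named up to 4 genes past the threshold in HCB versus control with the smallest p; it named the 3 nearest profiles per member, not all printed. Alternatives were DESeq2 1.42.0, its size factors, no filter, a filter of 1 CPM in 2 libraries, a replicate block and each library left out. The fit was tested on simulated counts. Promoters came from a RefSeq table on GRCr8. Figures used matplotlib 3.10.9. With 2 rats per group, precision is low, and intervals from counts would cover counting error only. The sum of a marker list for gut muscle is not reported here.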

Additional observations from a re-analysis of the deposited data

How the results depend on the processing

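The replicate number gave no pairing that held in every comparison: deviations of same-numbered libraries correlated at −0.0399 in HCB versus control, −0.00589 in both treatments versus atorvastatin, 0.269 in atorvastatin versus control and 0.0545 in both treatments versus HCB. With the number as a replicate block, 4282 and 4398 genes were called in the first 2 comparisons and 5 and 6 of the 10 genes were lower, so no call count changed by over 1.5 times. DESeq2, its size factors and the stricter filter also left the counts of lower genes in both HCB comparisons within 1.5 times.

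Without a filter on low counts, 76 genes were called in atorvastatin versus control, 5 of the 10 among them as higher, 179 in both treatments versus HCB and 70 for the interaction, 1 of the 10 among them as lower; the elastic fibre list then had 2 genes that rose in HCB versus control. DESeq2 called 3, 44 and 5 genes in those 3 comparisons. The cause was not tested.

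Leaving out each library in turn gave 2164 to 4622 called genes in HCB versus control, with 1 to 6 of the 10 lower, and 1902 to 4819 in both treatments versus atorvastatin, with 3 to 9 lower. It gave 0 to 33 in atorvastatin versus control, with 0 to 4 of the 10 higher, 0 to 6 in both treatments versus HCB, and 0 to 5 for the interaction, with 0 to 1 lower. In HCB versus control the elastic fibre list had 2 to 9 genes that fell and 0 to 1 that rose, the fibroblast list 5 to 8 and the smooth muscle list 4 to 7 that fell. In both treatments versus atorvastatin they had 3 to 13 with 0 to 1 that rose, 4 to 9, and 0 to 8. With fewer libraries fewer degrees of freedom remain. For single genes in atorvastatin versus control the log2 fold change ran from −1.42 to 2.29 for Eln, −0.34 to 0.64 for Fbn1, −0.42 to 3.04 for Postn, −0.27 to 3.76 for Fndc1, −0.20 to 2.84 for Myh11, −0.57 to 1.46 for Acta2, −0.19 to 1.53 for Tagln and −0.77 to 3.15 for Cnn1, the lowest of each without atorvastatin replicate 2. For Cnn1 in both treatments versus HCB it ran from −0.93 to 0.38.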
